A study of Mus musculus with 24 samples.

Results

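Aminoacyl-tRNA synthetases are the enzymes that join each amino acid to its own tRNA, so that the ribosome can read the code. Mammalian cells hold one set that charges tRNA in the cytosol and another, named with a final 2, that is imported into mitochondria to charge the tRNA made there. Many of the cytosolic genes belong to the targets of Atf4, a transcription factor that drives the integrated stress response. Cells can switch this response on when uncharged tRNA builds up or when ribosomes collide, among other stresses. The 36 genes described here were taken by symbol from a table of 55450 genes. They are 20 genes of the cytosolic set (Farsa and Farsb encode the subunits of 1 enzyme, and Gars and Kars also supply mitochondria from the same gene) and 16 of the mitochondrial set.

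The libraries came from 3 tissues (cerebellum, liver, testes) of mice that were wild-type (WT) or lacked Thumpd1 (knockout, KO), with 4 libraries for each of the 6 groups. Thumpd1 encodes the adapter that lets the acetyltransferase Nat10 modify serine and leucine tRNA, so the enzymes for serine and leucine (Sars, Lars, Sars2 and Lars2) are also compared with the rest. The KO allele is a germline deletion made with Cas9 cuts in exon 1 and exon 4 in C57BL/6N eggs, present in every cell of the animal. The mice were 6 to 12 weeks old and, by the study, of either sex. Controls were age-matched littermates unless the study says otherwise. Neither group had any other allele or treatment according to the labels. The sex behind each cerebellum and liver library is not given here. Libraries of WT mice carry the numbers 1 to 4 and those of KO mice 5 to 8 in each tissue, and the study calls the libraries of a group biological replicates. Neither the labels nor the study says whether a number marks the same animal in 3 tissues. P-values measure the spread between these libraries. In bulk tissue, fewer cells of a type and less RNA per cell cannot be told apart.

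Total counts ranged from 16353797 to 37889615 per library, and the lowest count of any synthetase gene in a library was 40, for Pars2 in liver. Thumpd1 itself held 248 to 846 counts in the WT libraries of the 3 tissues, 0 to 4 counts in the KO libraries of cerebellum and liver, and 23 to 41 counts in those of testes. The markers of each tissue were far higher in its own libraries than elsewhere, with 3964 CPM (counts-per-million) or more of 12 cerebellum markers in each cerebellum library against at most 138.7 in any other library. In cerebellum, libraries with neighbouring numbers (1 and 2, 3 and 4, 5 and 6, 7 and 8) resembled each other more than other pairs did, and in testes this held for all but WT 1 and 2. Transthyretin (Ttr), a choroid plexus transcript, stood at 713 and 731 CPM in cerebellum WT 1 and 2, at 0.834 and 0.627 CPM in WT 3 and 4, at 1.41 and 1.47 CPM in KO 5 and 6 and at 244 and 237 CPM in KO 7 and 8. The chi-square per gene, where counting noise alone gives about 1, was 3.20 to 5.47 between neighbours in cerebellum and 5.58 to 12.3 for the other pairs of a group. In testes it was 2.31 for WT 3 and 4, 3.39 for KO 5 and 6 and 15.0 for KO 7 and 8, but 12.4 for WT 1 and 2, above the other WT pairs (6.20 to 9.13). In liver, neighbours did not resemble each other in this way beyond WT 1 and 2 (9.15) and KO 5 and 6 (33.3), since WT 3 and 4 had the highest value of all WT pairs (346) and KO 7 and 8 (107) exceeded KO 6 and 7 (70.2). Liver WT 4 stood apart from the other liver libraries, with 9.33% of its counts in the noncoding gene Gm42418 against at most 1.16% in the others. Neighbours were also summed to 2 samples per group, a choice made after seeing the data, and the calls lost then are given with the results.

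In cerebellum 9 of the 20 cytosolic synthetase genes and 1 of the 16 mitochondrial ones, Tars2, were higher in KO. The 9 cytosolic genes had an adjusted p under 0.05 with limma, where 3.93% of all 16225 genes tested were called higher and 2.51% lower. None of the 20 was called lower, and 3 (Eprs, Qars and Rars) had a value below 0. The median log2 change was 0.16 over the cytosolic genes, 0.00 over the mitochondrial genes and -0.01 over all genes. The 4 KO libraries lay above the 4 WT libraries without overlap for 12 of the 20 cytosolic genes, against 7.57% of all genes, and for 1 of the 16 mitochondrial genes.

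Cars, the cysteine enzyme, rose most. Its normalized CPM, scaled with TMM factors over all 24 libraries, was 24.5, 26.9, 27.1 and 24.4 in WT and 34.5, 35.0, 36.8 and 35.8 in KO, and the fold change was 1.38 (log2 change 0.46 ± 0.0486 SE, adjusted p 0.000306 with limma). The groups were far apart relative to their own spread. Aars, which charges alanine tRNA, went from 101, 106, 106 and 106 CPM in WT to 131, 128, 141 and 137 CPM in KO, a 1.30-fold rise (0.38 ± 0.0361 SE, adjusted p 0.000247 with limma). The count of Aars is less certain than the others. Exosc6, an exosome subunit gene, lies wholly within exons of Aars on the same strand over 1326 bp. It was listed at 0 in all 24 libraries, so reads of Exosc6 and Aars cannot be told apart. This limit holds for every Aars value given here, in each tissue. Mars, the methionine enzyme, stood at 33.1, 32.4, 31.8 and 34.2 CPM in WT and at 41.4, 41.0, 43.0 and 42.6 CPM in KO (1.28-fold, 0.35 ± 0.0406 SE, adjusted p 0.000464 with limma). Every KO library again exceeded every WT library. Mars shares 68 bp of exon with Ddit3 on the other strand. Ddit3 was far lower than Mars, at 4.35 to 5.72 CPM in WT and 6.42 to 7.81 CPM in KO.

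The serine enzyme Sars had the tightest KO values of the group. It measured 54.5, 55.5, 52.3 and 54.6 CPM in WT and 68.2, 68.5, 67.6 and 68.2 CPM in KO, a 1.26-fold difference (0.33 ± 0.0365 SE, adjusted p 0.000372 with limma). Yars, the tyrosine enzyme, was spread more widely in KO. Its values were 43.3, 45.2, 45.0 and 44.7 CPM in WT and 55.7, 51.3, 59.9 and 56.6 CPM in KO, also 1.26-fold (0.33 ± 0.0453 SE, adjusted p 0.00138 with limma). Yars shares 30 bp of exon with C77080 on the other strand. C77080 stood at 35.9 to 39.9 CPM in WT and 34.2 to 48.6 CPM in KO. Wars, the tryptophan enzyme, went from 41.9, 43.2, 43.5 and 41.8 CPM to 50.1, 48.0, 53.6 and 49.5 CPM (1.18-fold, adjusted p 0.00572 with limma). The remaining calls were smaller. Nars, for asparagine, measured 66.8, 65.8, 68.3 and 66.5 CPM in WT and 76.3, 79.7, 73.6 and 72.9 CPM in KO (1.14-fold, adjusted p 0.0170 with limma). Gars, for glycine, measured 46.6, 46.9, 43.3 and 45.7 CPM in WT and 54.4, 53.6, 49.3 and 51.3 CPM in KO (1.14-fold, adjusted p 0.0389 with limma). The leucine enzyme Lars came last. It stood at 26.6, 27.8, 27.9 and 27.5 CPM in WT and at 29.7, 32.6, 31.1 and 30.4 CPM in KO (1.13-fold, 0.18 ± 0.0458 SE, adjusted p 0.0395 with limma). In all of these genes the lowest KO library lay above the highest WT library.

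**Figure D1:**
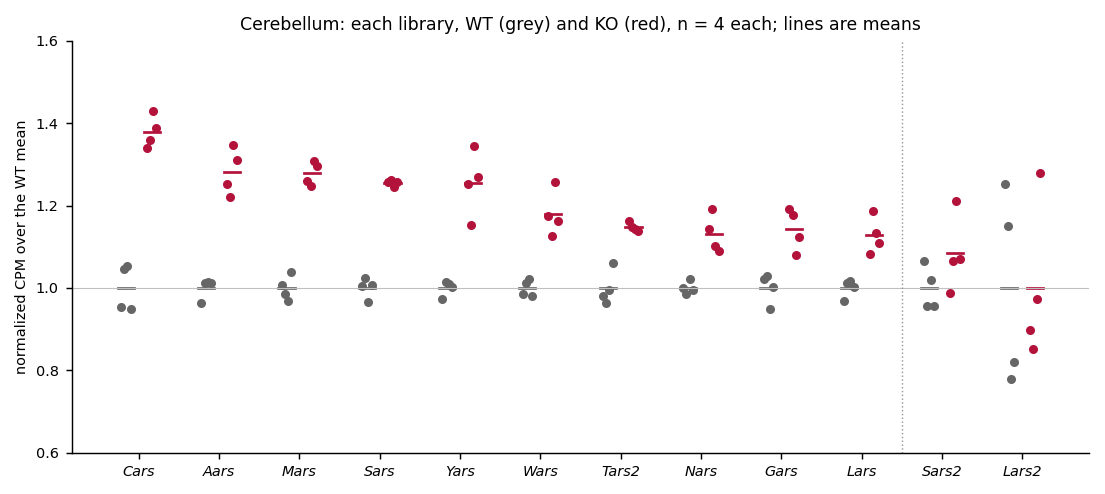
Normalized CPM of each cerebellum library divided by the WT mean of that gene, for the 10 genes called higher in KO (left of the dotted line, ordered by log2 change) and for Sars2 and Lars2 (right). Grey points are the 4 WT and red points the 4 KO libraries, and short lines are group means. KO points lie wholly above WT points for the 10 called genes and mix with them for Sars2 and Lars2.

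The other cytosolic genes of cerebellum did not pass. Iars, for isoleucine, changed by 0.15 on the log2 scale (adjusted p 0.0750 with limma) and Farsa by 0.15, while Eprs, Qars and Rars, which charge glutamate and proline, glutamine and arginine, had changes of -0.04, -0.04 and -0.08. Eprs, Qars and Rars belong to the multisynthetase complex, a particle that holds the products of 8 of the cytosolic genes. Of those 8 genes, 2 (Lars and Mars) were called higher and the median log2 change was 0.05, against 7 of 12 and a median of 0.19 for the cytosolic genes outside the complex. By the fold of their catalytic domain, 5 of 9 class I and 4 of 10 class II cytosolic genes were called, with medians of 0.18 and 0.17 (Eprs, which carries both folds, was left out).

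Of 12 cytosolic genes listed from general knowledge as Atf4 targets, 9 were called higher and 0 lower, with a median log2 change of 0.22. None of the 8 other cytosolic genes was called, and their median was 0.05. The 3 listed genes without a call were Eprs, Iars and Tars. The mean of the 12 listed genes lay between 0.23 and 0.27 log2 units above the WT mean in the 4 KO libraries, against -0.01 to 0.01 in the WT libraries. The same mean over the 8 other genes was 0.01 to 0.09 in KO and -0.04 to 0.04 in WT, so that these ranges overlapped. Outside the synthetases, 11 of 17 tested targets of Atf4 were called higher and 0 lower, beside 3.93% and 2.51% of all genes. Atf4 itself had a log2 change of 0.33, and the amino acid enzyme gene Asns one of 0.50 (adjusted p 0.00105 and 0.000306 with limma). With neighbours summed, 3 of the 17 were called higher (Asns, Atf5 and Chac1), beside 0.240% of all genes. Atf4 was not called then (adjusted p 0.0565 with limma). These lists were drawn up with these data known, and that of 12 holds all 9 called cytosolic genes. Their counts, medians and library means, and those of the 8 other genes, therefore support nothing.

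Of the mitochondrial genes of cerebellum 8 had a log2 change above 0 and 8 below. Tars2, which charges threonine tRNA in mitochondria, was the one gene called, at 20.05, 19.7, 20.4 and 21.7 CPM in WT and 23.8, 23.5, 23.4 and 23.3 CPM in KO (1.15-fold, 0.20 ± 0.0493 SE, adjusted p 0.0350 with limma). Its groups did not overlap. The mitochondrial serine enzyme Sars2 measured 8.42, 7.56, 8.05 and 7.56 CPM in WT and 7.81, 8.42, 9.57 and 8.46 CPM in KO, a log2 change of 0.10 (adjusted p 0.487 with limma). Lars2, the mitochondrial leucine enzyme, measured 37.9, 34.8, 23.6 and 24.8 CPM in WT and 27.2, 25.8, 29.5 and 38.7 CPM in KO, a change of -0.01 ± 0.152 SE. For Sars2 2 of the 4 KO libraries lay above every WT library, and for Lars2 1 did. The serine and leucine enzymes as a set thus held 2 calls among 4 genes with a median of 0.14, beside 8 calls among the 32 other genes with a median of 0.08. The other 7 called cytosolic genes ran from 0.19 to 0.46, with Sars inside that range and Lars (0.18) just below it.

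How firm these calls were differed by gene. With neighbouring libraries summed, 4 of the 36 genes were still called, namely Cars, Aars, Mars and Sars, where 0.240% of all genes were called higher. Cerebellum libraries with low and with high Ttr were also fitted apart. Each of these fits holds 1 neighbouring pair per genotype, so it has 1 sample per genotype once neighbours count as 1, and its calls say little about how firm a result is. The 2 WT and 2 KO libraries with under 2 CPM of Ttr called Aars, Cars, Gars, Mars and Sars higher (2.01% of all genes), and the 4 libraries with over 200 CPM of Ttr called Aars, Cars, Mars, Sars, Wars and Yars (2.77%). Of the 18 alternative fits, Sars was called in 18, Aars, Cars and Mars in 17, Yars in 16 and Wars in 15, but Nars in 11, Gars in 9, Tars2 in 7 and Lars in 6. A single fit of all 24 libraries called only Sars and Yars. A list of 17 forebrain markers also moved with genotype. Their sum was 161 to 174 CPM in WT and 201 to 231 CPM in KO, 5 of the 9 tested were called higher (2 with neighbours summed), and none of the 17 was at 0 in all cerebellum libraries. The sums of the other marker lists overlapped between the groups. Of 12 cerebellum markers 3 were called lower and 1 higher (3964 to 4346 CPM in KO, 4326 to 4472 CPM in WT). Of 8 oligodendrocyte markers 2 were called higher and 0 lower, and of 10 tested midbrain markers 2 higher and 1 lower. Over all genes 3.93% were called higher and 2.51% lower. The part of all these transcripts in the synthetase changes was not tested.

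**Figure D2:**
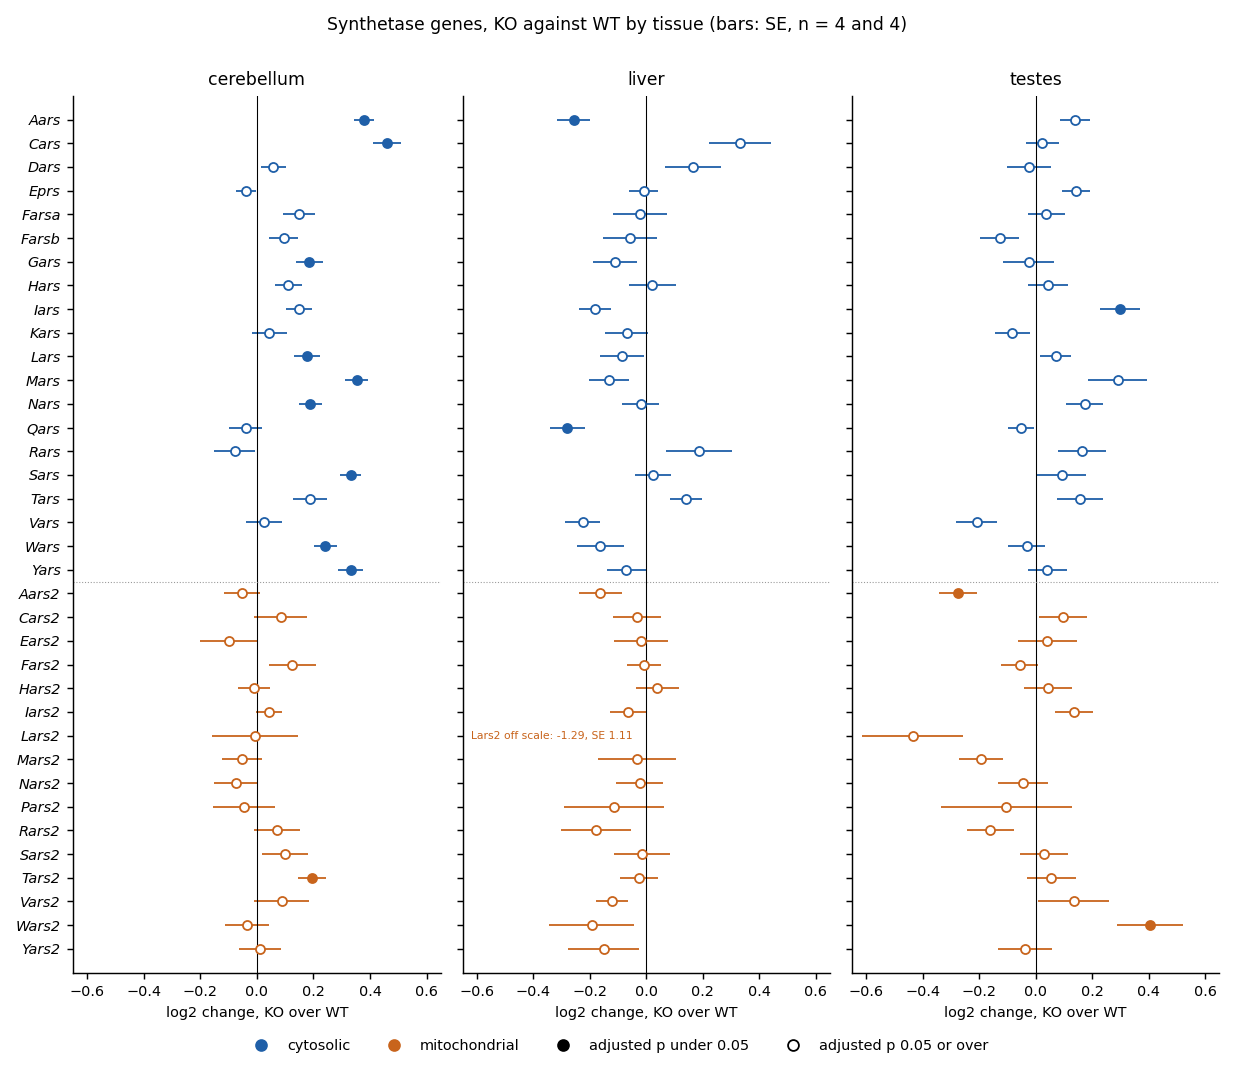
Log2 change in KO relative to WT for the 36 genes in each tissue, with bars of 1 standard error from limma-voom (4 KO and 4 WT libraries). Blue marks cytosolic and orange mitochondrial genes, filled points have an adjusted p under 0.05, and Lars2 in liver (-1.29, SE 1.11) is off the scale. Filled points number 10 in cerebellum, 2 in liver and 3 in testes.

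Promoter sequences are shown for the cerebellar genes that rose, since Atf4 binds with its partners to the C/EBP-ATF response element, whose core is written here as TGATGNAA. The windows are those of RefSeq on GRCm38.p6, from 250 bases before to 50 bases after each gene's start, and 27 of the 36 genes had one. The core was searched on both strands and occurred in 4.51% of the 27025 genes with a window. It was found in 5 of 13 cytosolic genes (Aars, Gars, Iars, Tars and Yars) and in 0 of 14 mitochondrial genes. Among the cytosolic genes called higher in cerebellum it was in 3 of 5 windows, and in 2 of 8 among those not called. Capitals mark the core, read as TTNCATCA where it lies on the other strand. Aars (chr8:111033592-111033891, plus strand) held it 112 bases before and 9 bases after the start, Gars (chr6:55037751-55038050, plus strand) 30 bases before it and Yars (chr4:129189653-129189952, plus strand) 3 bases after it. Asns (chr6:7693160-7693459, minus strand), a textbook Atf4 target, held it 23 bases before the start. Of the other windows read outside the 36 genes, that of Chac1 held it 193 bases before the start and that of Atf4 held none.
Aars: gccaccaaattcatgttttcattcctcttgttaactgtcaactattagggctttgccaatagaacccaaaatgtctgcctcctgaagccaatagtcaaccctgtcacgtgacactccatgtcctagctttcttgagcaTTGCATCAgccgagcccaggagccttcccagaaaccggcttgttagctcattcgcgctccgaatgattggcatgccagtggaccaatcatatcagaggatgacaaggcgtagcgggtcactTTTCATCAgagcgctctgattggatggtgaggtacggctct
Gars: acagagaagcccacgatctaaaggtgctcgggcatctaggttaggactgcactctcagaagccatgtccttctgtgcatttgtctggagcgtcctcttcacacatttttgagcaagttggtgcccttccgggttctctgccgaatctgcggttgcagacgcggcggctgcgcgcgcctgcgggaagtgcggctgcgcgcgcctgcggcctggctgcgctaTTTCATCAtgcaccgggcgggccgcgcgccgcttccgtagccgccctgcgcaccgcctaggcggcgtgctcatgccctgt
Yars: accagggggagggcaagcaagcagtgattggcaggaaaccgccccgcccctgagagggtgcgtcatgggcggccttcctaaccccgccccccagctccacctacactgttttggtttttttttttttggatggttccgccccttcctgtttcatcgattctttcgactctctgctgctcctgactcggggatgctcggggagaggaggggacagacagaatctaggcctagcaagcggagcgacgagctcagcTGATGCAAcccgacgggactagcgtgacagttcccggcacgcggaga
Asns: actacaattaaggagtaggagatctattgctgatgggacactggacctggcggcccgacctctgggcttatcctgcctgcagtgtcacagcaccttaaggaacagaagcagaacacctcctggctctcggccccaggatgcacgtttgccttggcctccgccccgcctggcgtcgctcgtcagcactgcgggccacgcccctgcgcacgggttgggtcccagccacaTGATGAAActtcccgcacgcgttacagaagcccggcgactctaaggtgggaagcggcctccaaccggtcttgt

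Mars (chr10:127311737-127312036, minus strand) and Sars (chr3:108445210-108445509, minus strand) rose about as much as Yars and held no such core in the window. Sars2 (chr7:28741718-28742017, plus strand), the mitochondrial enzyme for the same amino acid as Sars, held none either and its change did not pass. A match of letters is a description of the window and not evidence of binding, and no window was used for Cars, Hars, Lars, Nars, Rars, Vars, Wars, Hars2 and Pars2.
Mars: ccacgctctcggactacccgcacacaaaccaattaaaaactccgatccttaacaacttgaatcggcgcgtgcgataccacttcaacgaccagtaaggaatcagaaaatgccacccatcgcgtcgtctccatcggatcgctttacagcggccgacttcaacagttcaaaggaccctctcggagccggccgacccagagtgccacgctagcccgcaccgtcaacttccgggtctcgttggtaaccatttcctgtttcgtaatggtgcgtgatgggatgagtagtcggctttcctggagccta
Sars: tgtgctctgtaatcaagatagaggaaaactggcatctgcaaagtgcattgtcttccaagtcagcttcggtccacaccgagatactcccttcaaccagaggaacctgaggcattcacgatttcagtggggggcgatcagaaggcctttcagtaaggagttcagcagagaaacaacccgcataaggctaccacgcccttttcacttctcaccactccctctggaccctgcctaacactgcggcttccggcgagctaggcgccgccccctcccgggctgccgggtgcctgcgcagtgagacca
Sars2: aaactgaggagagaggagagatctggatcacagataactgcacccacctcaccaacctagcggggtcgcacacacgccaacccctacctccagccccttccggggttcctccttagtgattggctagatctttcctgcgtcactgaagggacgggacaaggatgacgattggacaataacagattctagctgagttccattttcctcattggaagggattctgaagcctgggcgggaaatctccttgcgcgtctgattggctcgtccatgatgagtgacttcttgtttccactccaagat

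In liver no synthetase gene was called higher, and 2 cytosolic genes fell. Qars, the glutamine enzyme, measured 53.7, 50.8, 54.8 and 51.1 CPM in WT and 41.5, 44.6, 41.8 and 42.3 CPM in KO (log2 change -0.28 ± 0.0621 SE, adjusted p 0.0262 with limma). Aars measured 378, 373, 370.2 and 324 CPM in WT and 271, 277, 314 and 309.6 CPM in KO (-0.26 ± 0.0579 SE, adjusted p 0.0274 with limma). In both genes every KO library lay below every WT library, and the lowest WT value of Aars was that of WT 4. These were 2 of 20 cytosolic genes, where 3.12% of all 12816 genes tested were called lower and 2.79% higher, and 0 of the 16 mitochondrial genes were called. The median log2 change was -0.06 over the cytosolic, -0.05 over the mitochondrial and 0.00 over all genes, and 29 of the 36 genes had a value below 0. Both calls were lost with neighbours summed, although not all liver neighbours are alike, where 0.0780% of all genes were called, and without WT 1, WT 2, WT 3 or KO 5 no synthetase gene was called. The mean log2 level over the cytosolic genes, relative to the WT mean, was -0.00195 to 0.0688 in WT 1 to 3, -0.10 in WT 4 and -0.09 to -0.05 in KO. Over the mitochondrial genes other than Lars2 it was 0.01 to 0.04 in WT 1 to 3, -0.07 in WT 4 and -0.17 to -0.01 in KO, so the groups overlapped through WT 4 alone.

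Further liver genes had groups that did not overlap without passing the test in this fit. Vars, the valine enzyme, measured 86.4, 86.0, 90.6 and 89.1 CPM in WT and 69.4, 67.4, 80.3 and 74.2 CPM in KO, a log2 change of -0.23 (adjusted p 0.0564 with limma), and 4 of 16 alternative fits called it, among them TMM scaling, edgeR and DESeq2 but only 1 of the 8 that left out a library. Iars and the mitochondrial Vars2 likewise lay below WT in every KO library, which held for 5 of the 36 genes beside 8.94% of all genes. Cars was the gene with the highest log2 change, 0.33, but its libraries overlapped (adjusted p 0.101 with limma).

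The serine and leucine enzymes of liver gave no call. Sars stood at 45.6, 44.3, 48.2 and 46.6 CPM in WT and 48.5, 44.3, 44.8 and 46.3 CPM in KO, and Lars at 37.9, 35.3, 33.9 and 38.3 CPM in WT and 36.8, 32.0, 31.7 and 34.8 CPM in KO. Sars2 measured 17.0, 21.6, 20.7 and 17.6 CPM in WT and 18.1, 16.8, 20.8 and 18.6 CPM in KO. All 3 overlapped between the groups, with log2 changes of 0.02, -0.09 and -0.02 (adjusted p 0.867, 0.556 and 0.949 with limma). Lars2 behaved unlike any other synthetase gene. It stood at 166, 386, 107 and 8622 CPM in WT and at 213, 102, 396 and 157 CPM in KO, so that 1 library, WT 4, stood far above all others. Gm42418, whose locus holds ribosomal RNA sequence, stood at 13489, 16243, 12242 and 145557 CPM in the same WT libraries and at 12531, 10775, 15197 and 10143 CPM in the KO libraries. WT 4, WT 2 and KO 7 were the 3 highest libraries for both genes, and the part of ribosomal RNA reads in the Lars2 count was not tested. The Lars2 change of -1.29 carries an SE of 1.11.

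**Figure D3:**
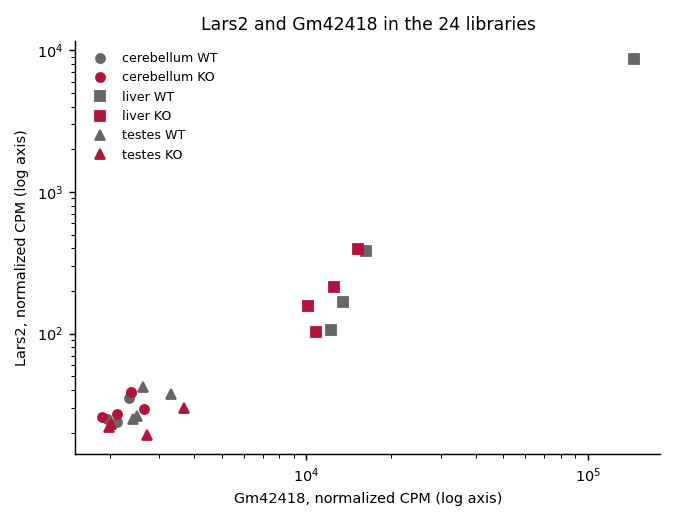
Normalized CPM of Lars2 against that of Gm42418 in each of the 24 libraries, both on log axes, with shapes for tissues and grey for WT, red for KO. The liver library WT 4 lies alone at 8622 CPM of Lars2 and 145557 CPM of Gm42418, and the other liver libraries lie above all cerebellum and testes libraries on both axes.

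In testes, Iars, Wars2 and Aars2 were called, in both directions. Iars measured 44.6, 41.3, 41.4 and 41.6 CPM in WT and 48.1, 47.0, 52.5 and 52.0 CPM in KO (1.23-fold higher, 0.30 ± 0.0692 SE, adjusted p 0.0141 with limma). The mitochondrial tryptophan enzyme Wars2, the lowest but 1 of the mitochondrial set by CPM, measured 2.90, 3.08, 3.00 and 3.20 CPM in WT and 3.57, 3.92, 4.22 and 4.54 CPM in KO (1.32-fold higher, 0.41 ± 0.117 SE, adjusted p 0.0318 with limma). Aars2, the mitochondrial alanine enzyme, fell from 29.4, 31.8, 32.9 and 32.5 CPM to 25.9, 25.5, 24.1 and 27.2 CPM (log2 change -0.27 ± 0.0664 SE, adjusted p 0.0164 with limma). Each of these 3 had groups without overlap. So had the uncalled Mars and Tars, higher in KO, and Kars, Qars and Vars, lower in KO. Of the 36 genes, 4 lay wholly above and 4 wholly below WT. The share of all genes without overlap is not given here for testes, so these counts cannot be weighed. The 2 genes called higher and 1 called lower among 36 stand beside 9.74% and 10.7% of the 19329 genes tested, which is a larger share in each direction. The medians were 0.04 over the cytosolic, 0.00 over the mitochondrial and 0.00 over all genes. No synthetase gene was called without WT 3, without WT 4 or with neighbours summed, where 0.00517% of all genes were called, and Wars2 was called in 8 of 17 alternative fits, losing its call without any 1 of WT 1 to 4, KO 7 and KO 8, without KO 7 and 8 together and without the filter.

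Vars was the most abundant synthetase transcript of testes and one whose call depended on the fit. It measured 458, 521, 532 and 512 CPM in WT and 369, 384, 346 and 445 CPM in KO, without overlap. With quantile normalization the log2 change was -0.21 (adjusted p 0.0605 with limma), and with TMM, edgeR or DESeq2 it was -0.34 and passed, as it did with sample quality weights under quantile normalization (-0.30). It was called in 7 of 17 alternative fits, in 1 of the 8 that left out a library (log2 change -0.28 to -0.16 over these) and neither without the filter nor with the weaker one. Marker levels of other cell types also moved with genotype in testes. Markers of round and elongating spermatids summed lower in every KO library, at 919.9 to 1196 against 1288 to 1359 CPM and at 10350 to 13856 against 15410 to 16555 CPM, and those of Sertoli cells were higher, with 8 of 10 called (0 with neighbours summed). Macrophage markers were lower in every KO library, at 153 to 190 against 215 to 221 CPM, with 1 of the 9 tested called lower, and those of spermatogonia, spermatocytes and Leydig cells overlapped between the groups. Their part in the synthetase values was not tested. Sars (18.5, 21.3, 20.9 and 22.3 CPM in WT against 21.3, 21.7, 24.2 and 19.6 in KO), Lars (34.3, 32.6, 34.0 and 34.4 against 34.9, 34.1, 35.1 and 33.7) and Sars2 (8.42, 8.21, 7.74 and 7.19 against 7.60, 8.18, 7.95 and 8.22) overlapped between the groups and were not called. Lars2 measured 42.2, 37.6, 26.3 and 24.9 CPM in WT and 23.1, 21.9, 19.3 and 29.8 CPM in KO, a log2 change of -0.44 (adjusted p 0.103 with limma).

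**Figure D4:**
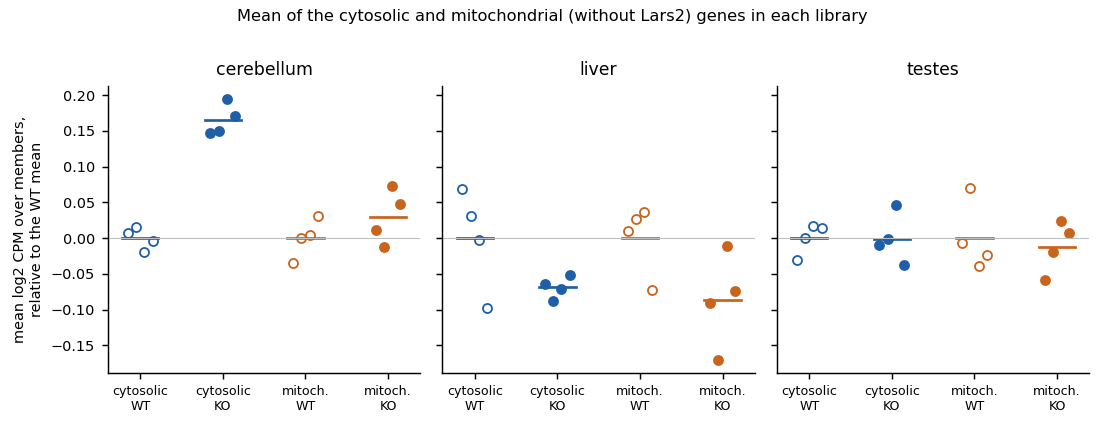
Mean log2 CPM over the 20 cytosolic genes (blue) and the 15 mitochondrial genes other than Lars2 (orange) in each library, relative to the WT mean of that tissue. Open points are WT and filled points KO libraries (4 each), and short lines are means. The cytosolic KO points of cerebellum lie at 0.15 to 0.19 with WT at -0.02 to 0.02, and the groups overlap in the other 5 pairs. In liver the overlap comes from WT 4.

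The effect of the knockout was then compared between tissues by testing the difference of the log2 changes in a fit of all 24 libraries over 11112 genes. The cerebellum change exceeded that of liver for 8 of the 36 genes, all cytosolic, where 3.90% of all genes differed in that direction. The differences were 0.64 for Aars (adjusted p 6.23e-06 with limma), 0.51 for Mars, 0.41 for Yars, 0.40 for Wars, 0.34 for Iars, 0.32 for Sars, 0.26 for Lars and 0.26 for Qars. Of 20 alternative fits, Lars was called in 5 and Qars in 8, and the other 6 genes in 19. Lars kept its call in 3 and Qars in 6 of the 16 fits that left out a library, and both lost it when every gene passing the filter in any tissue was fitted. Mitochondrial genes gave no difference past the threshold between cerebellum and liver. The change in testes lay below that of cerebellum for 6 cytosolic genes, beside 7.42% of all genes, and for none of them when every gene passing the filter in any tissue was fitted. These differences were -0.49 for Cars, -0.43 for Vars, -0.38 for Aars, -0.33 for Yars, -0.32 for Wars and -0.27 for Sars (adjusted p 0.00195 for Aars and 0.0289 for Sars with limma). Sars was called in 13 of 20 alternative fits and the other 5 in 18. Between testes and liver, Aars, Iars, Mars and Wars2 had the higher change in testes (0.26, 0.42, 0.38 and 0.53, with 7.95% of all genes) and Cars the lower one (-0.34, with 7.92%), with Wars2 called in 11 and Cars in 10 of 20 alternative fits and the other 3 in 19. These comparisons share libraries of a tissue with each other. None of the 36 genes passed in any of them with neighbours summed, where 0.0900% of all genes were called between cerebellum and liver, 0.234% between testes and liver and 0.0450% between testes and cerebellum.

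Levels in the WT libraries were compared between tissues. Of all genes 89.7% were called between cerebellum and liver, 90.6% between testes and liver and 90.0% between testes and cerebellum, so sizes are given here in place of calls. The largest difference among cytosolic genes was that of Vars, which was 13.1-fold higher in testes than in cerebellum and 5.74-fold higher than in liver. Tars, the threonine enzyme, was 7.83-fold higher in liver than in cerebellum and 11.2-fold higher than in testes. Aars and Mars were also highest in liver, 3.45 and 3.05 times the lowest tissue, while Nars and Sars were lowest in testes, where their highest tissue exceeded them 3.89 and 2.61 times. Rars was the most even, with 1.07 times between its highest and lowest tissue and no separation of the libraries.

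Most mitochondrial genes were highest in liver. This held for 12 of the 16, in 11 of them with no overlap with the next tissue, and without Lars2 for 11 of 15 and 10 of them, among them Vars2 (4.72 times its lowest tissue), Ears2 (3.45 times) and Iars2 (2.91 times). The exceptions were Mars2 and Wars2, highest in cerebellum, and Fars2 and Rars2, highest in testes. The cytosolic genes had no such common tissue, with 8 highest in liver, 7 in testes and 5 in cerebellum. The share of all genes that are highest in liver is not given here, so these counts cannot be weighed. Since 89.7% to 90.6% of all genes were called between tissues, a lack of overlap says little about these genes.

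Compared per kilobase of exon, which allows genes to be set beside each other, the median cytosolic gene stood above the median mitochondrial gene in each tissue. The ratio of the medians was 3.26 ± 0.294 in testes, 2.76 ± 0.103 in cerebellum and 1.76 ± 0.0587 in liver (SD, n = 4). In cerebellum the asparagine enzyme gene Nars was highest at 15.3 ± 0.246 CPM per kb, followed by Gars at 14.6 ± 0.529 and Wars at 12.4 ± 0.250, and 13 cytosolic genes lay above every mitochondrial gene. By the longest transcript in place of all exons Nars and Gars stayed first, but Aars came before Wars (18.2 and 14.8 CPM per kb). In liver the mean of Lars2 rested on WT 4. Aars led the other genes at 38.9 ± 2.73 CPM per kb, ahead of Mars at 29.3 ± 2.58 and Tars at 22.4 ± 1.10. The Aars value may hold reads of Exosc6 here too. In testes Vars stood at 90.2 ± 5.88 CPM per kb, and the next gene, Dars, at 18.5 ± 0.699. Many neighbours in these orders could not be separated, since only 12 of 35 neighbouring pairs in cerebellum, 8 in liver and 9 in testes had WT libraries without overlap.

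**Figure D5:**
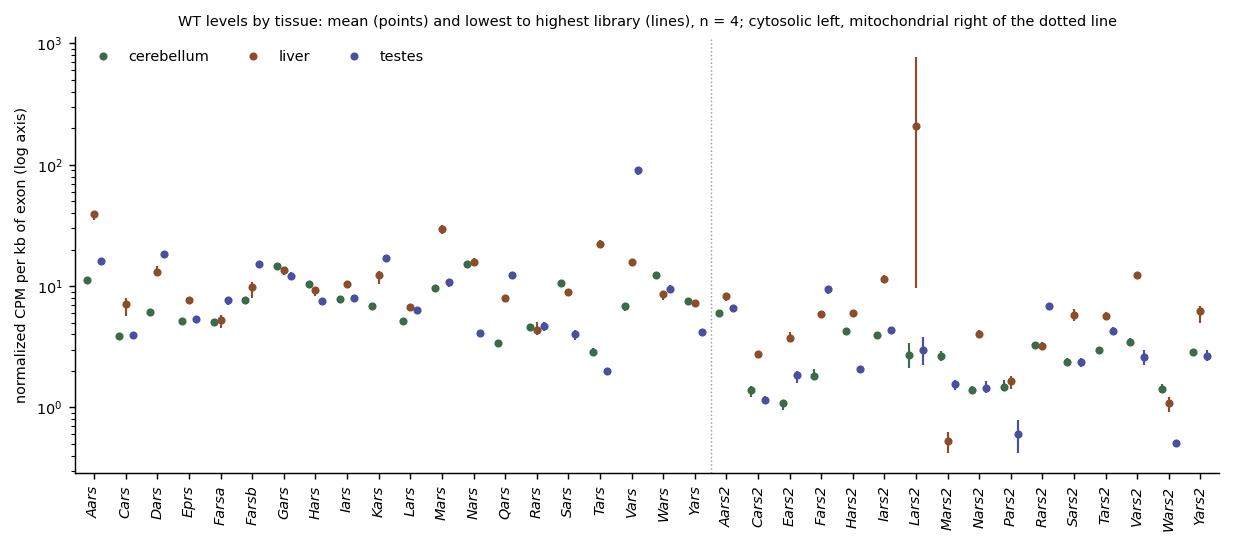
Normalized CPM per kilobase of exon in the WT libraries of cerebellum (green), liver (brown) and testes (blue), on a log axis, with points for the mean of 4 libraries and lines from the lowest to the highest. Vars in testes (90.2) stands far above the other genes of that tissue, and the line of Lars2 in liver runs from 9.63 to 778, its upper end being WT 4.

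Genes that work with the synthetases were looked at through a list of 18, with the scaffold proteins of the complex, tRNA export and proofreading factors and the mitochondrial amidotransferase. In cerebellum 1 of the 18 tested was called, Ptrh2, a peptidyl-tRNA hydrolase, which had a log2 change of -0.26 (adjusted p 0.0432 with limma). In liver Xpot, the exporter of tRNA from the nucleus, fell from 105.6, 106.4, 107.6 and 107 CPM to 84.7, 82.0, 89.0 and 88.8 CPM (log2 change -0.26, adjusted p 0.0159 with limma). It was the 1 gene called of 17 tested. In testes 1 of 18 was called, Tarsl2. These shares stand beside 6.44%, 5.91% and 20.5% of all genes called in either direction in cerebellum, liver and testes. Tarsl2, a cytosolic relative of Tars, rose from 17.2, 15.5, 17.9 and 17.3 CPM to 20.5, 23.5, 23.2 and 21.2 CPM (log2 change 0.40, adjusted p 0.00691 with limma). The medians of this list were -0.03, -0.12 and -0.03 in the 3 tissues. Of the targets of Atf4 outside the synthetases, 1 of 14 tested was called higher in liver (Asns, log2 change 2.72) and 1 lower (Slc3a2, -0.34), and in testes 0 of 15 were called higher and 2 lower (Asns, -0.20, and Psph, -0.29). None of the calls in this paragraph was kept with neighbours summed.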

How the data were processed

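The authors aligned the paired-end reads of a stranded total RNA kit with STAR and counted them with RSEM on mm10 with GENCODE M21. They deposited expected counts per gene, neither normalized nor filtered. Tool versions and the strand used in counting are not given in the sources used here, so genes whose exons overlap are uncertain. All 55450 identifiers matched GENCODE M21 and 0 columns were left unmatched. Sample groups came from the labels.

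Here each tissue was fitted apart on genes with at least 1 CPM in at least 4 libraries, with quantile normalization, voom and limma 3.58.1 in R 4.3.3. P-values were Benjamini-Hochberg adjusted over all genes tested, with a threshold of 0.05. Differences between tissues were tested in 1 fit of 24 libraries with TMM factors from edgeR 4.0.16. Printed CPM are scaled by TMM over all 24 libraries, and levels per kb use the exon union. Alternatives were TMM scaling, quality weights, no filter or 0.5 CPM in 2 libraries, edgeR, DESeq2 1.42.0 on rounded counts, 1 fit of 24 libraries, leaving out each library and a replicate block. Summing neighbours, the fits of the Ttr-low and Ttr-high libraries and leaving out testes KO 7 and 8 were added after seeing the data. Members, gene lists and tests were chosen with earlier results of these data known. Members were named by the rule that values per library are given for those called in a tissue and for Sars, Lars, Sars2 and Lars2. Others are named as exceptions after their values were seen. In cerebellum these were Iars, Farsa, Eprs, Qars and Rars, and in liver Vars, Iars, Vars2 and Cars. In testes they were Mars, Tars, Kars, Qars and Vars. The members named for their WT levels, promoters or single libraries were exceptions too. Figures used matplotlib 3.10.9.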

Additional observations from a re-analysis of the deposited data

Results flagged for a closer look

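In 216 groups of 4 libraries, 16 held a library far from the other 3, where chance gives about 1 in 20. The gap was largest relative to the range for Lars2 in liver WT 4, at 8622 CPM against 107 to 386 in the others. Liver WT 4 was also the low library for Aars (324 CPM against 370.2 to 378), Gars (38.4 against 43.8 to 44.2) and Farsb (21.03 against 27.2 to 28.1), and it was the library with 9.33% of its counts in Gm42418. Liver KO 6 was low for Yars2 (13.3 against 18.1 to 18.9).

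In cerebellum the flagged libraries were WT 1 for Aars (101 CPM) and Pars2 (5.22), WT 2 for Yars2 (8.70), KO 5 for Wars2 (8.02), KO 6 for Vars2 (15.5) and KO 8 for Dars (28.6). In testes they were WT 1 for Farsa (32.0) and Iars (44.6), WT 2 for Wars (34.9), WT 3 for Cars (27.4) and KO 8 for Cars (25.3).

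The knockout effect differed between tissues by a test of the difference itself in 19 cases. Cerebellum exceeded liver for Aars (0.64), Mars (0.51), Yars (0.41), Wars (0.40), Iars (0.34), Sars (0.32), Lars (0.26) and Qars (0.26), on the log2 scale. Testes exceeded liver for Wars2 (0.53), Iars (0.42), Mars (0.38) and Aars (0.26) and lay below it for Cars (-0.34). Testes lay below cerebellum for Cars (-0.49), Vars (-0.43), Aars (-0.38), Yars (-0.33), Wars (-0.32) and Sars (-0.27).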

How the results depend on the processing

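No called change reversed its direction under any alternative. In cerebellum 10 synthetase genes were called, and 4 with neighbouring libraries summed, 5 in the Ttr-low and 6 in the Ttr-high libraries, 2 in a single fit of 24 libraries and 6 to 12 when a library was left out (6 without WT 1 and without KO 5). The cytosolic median of 0.16 was 0.19 in the Ttr-low and 0.11 in the Ttr-high libraries, and the mitochondrial median of 0.00 was 0.0474 in the latter. In liver 2 were called, 1 without the filter, 4 with DESeq2, 0 with neighbours summed and 0 to 2 when a library was left out (0 without WT 1, WT 2, WT 3 or KO 5, and 1 without KO 6 or KO 8), and the cytosolic median of -0.06 was -0.12 in a single fit of 24 libraries. In testes 3 were called, 7 with sample quality weights, 6 with DESeq2, 0 with neighbours summed and 0 to 5 when a library was left out (0 without WT 3 or WT 4), and the mitochondrial median was -0.0636 without KO 7 and 8 and ran from -0.0361 to 0.0655 when a library was left out (0.0655 without KO 5). Of the differences between tissues, none remained with neighbours summed (8, 5 and 6 before), and testes against cerebellum gave 0 when genes passing in any tissue were fitted. Testes against liver gave 3 to 6 when a library was left out. The cytosolic to mitochondrial ratio per kb was 3.06 in cerebellum and 2.10 in liver by longest transcript, against 2.76 and 1.76. With a replicate block on the library numbers the 3 differences gave 8, 6 and 7 calls. Of 24 same-numbered pairs across tissues, 10 had a correlation of their deviations over 0.1 and 2 under -0.1 (median 0.03), against 11 and 17 of 72 differently numbered pairs. The 4 KO pairs of liver and testes lay at 0.11 to 0.15 and the 4 WT pairs at -0.06 to 0.03. Not every pair was over 0.1, so the numbers were not taken to pair the samples, and the relation they hint at in KO was not settled. The cause of these shifts was not tested, beyond the smaller number of samples when libraries were summed or left out.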
